A study of Rattus norvegicus with 18 samples.

Results

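The 7 genes described here encode matrix metalloproteinases (Mmp2, Mmp12, Mmp13 and Mmp14) and their protein inhibitors, the TIMPs (Timp1, Timp2 and Timp3), followed through healing of the fractured rat femur. They were chosen by gene symbol out of 4736 genes with a symbol of their own on the array. Mmp2 and Timp1 were read by 2 probe sets each, so 9 of the 8740 probe sets tested belong to them, and each gene is represented by its brightest probe set, taken as the mean of log2 signal. Female Sprague-Dawley rats, called young at 6 weeks of age, adult at 26 weeks and older at 52 weeks, had a femur broken at mid-shaft and held by an intramedullary rod, and RNA was taken from that stretch of bone with its callus. The healing times were 3 days, 1 week and 2, 4 and 6 weeks, and femora with no fracture came from sham rats at the time of fracture. The young rats aged and grew during the 6 weeks, so growth and healing cannot be told apart in them. The study made 3 arrays for each age and time, each from the pooled RNA of 2 rats. The data used here hold 1 of these for each age and time, 18 in all. The 3 ages therefore stand in as replicates when times are compared, and the 6 times when ages are compared. Every p-value measures only the spread between these pooled samples. In the fits of time and age, that spread includes any difference between the ages in their response to fracture.

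Matrix metalloproteinases are zinc enzymes that are secreted or held at the cell surface as inactive proenzymes, and once activated they cut collagens, proteoglycans and other matrix proteins. Mmp13 is the main collagenase of rodent bone and growth cartilage. Mmp12 is a macrophage elastase, Mmp2 is gelatinase A, and Mmp14 is a membrane-anchored enzyme that cuts fibrillar collagen and activates the Mmp2 proenzyme, with Timp2 serving as the bridge between them. The TIMPs bind active enzymes one to one and block them, and Timp3, unlike the others, stays bound to the matrix. In a callus these proteins take part in clearing the clot and cartilage and in turning over the new bone.

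The DNA just before the start of the gene is shown for 4 members, as a description of these genes. These sequences come from RefSeq (assembly GRCr8). The table held a promoter for 5 of the 7 members, and no entry was found for Mmp2 and Mmp14. The window before Timp1 lies inside the annotated gene and is not printed. Each sequence runs 5′ to 3′ over 250 bases up to the base before the start. Capitals mark AP-1 matches (TGANTCA), Runx matches (TGTGGT) and TATA matches (TATAAA), searched on both strands.
Mmp12, chr8:12866402-12866651, plus strand: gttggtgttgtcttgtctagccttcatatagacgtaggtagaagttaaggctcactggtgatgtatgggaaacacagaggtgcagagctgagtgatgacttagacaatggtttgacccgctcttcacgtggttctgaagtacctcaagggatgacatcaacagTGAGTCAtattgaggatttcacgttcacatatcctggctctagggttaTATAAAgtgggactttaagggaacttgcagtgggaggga
Mmp13, chr8:12782579-12782828, plus strand: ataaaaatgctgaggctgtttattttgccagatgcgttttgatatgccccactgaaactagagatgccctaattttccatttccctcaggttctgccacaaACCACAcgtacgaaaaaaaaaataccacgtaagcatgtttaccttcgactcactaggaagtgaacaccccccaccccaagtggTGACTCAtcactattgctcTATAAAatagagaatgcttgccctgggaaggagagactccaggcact
Timp2, chr10:104089215-104089464, minus strand: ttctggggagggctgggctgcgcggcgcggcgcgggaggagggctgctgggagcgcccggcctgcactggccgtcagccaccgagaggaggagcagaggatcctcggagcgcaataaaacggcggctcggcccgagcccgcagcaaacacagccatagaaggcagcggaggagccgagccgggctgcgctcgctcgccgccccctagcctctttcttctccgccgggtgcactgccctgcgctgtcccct
Timp3, chr7:19459559-19459808, minus strand: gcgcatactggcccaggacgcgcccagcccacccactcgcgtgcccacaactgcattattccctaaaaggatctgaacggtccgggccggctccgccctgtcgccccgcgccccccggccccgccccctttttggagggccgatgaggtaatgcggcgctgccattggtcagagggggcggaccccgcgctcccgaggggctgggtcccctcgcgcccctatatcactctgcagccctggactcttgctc

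The Mmp12 window held an AP-1 match at positions -87 to -81 and a TATA match at -39 to -34, counted back from the start. The Mmp13 window held an AP-1 match at -66 to -60 and a TATA match at -47 to -42. It also held a Runx match on the minus strand at -149 to -144. Neither AP-1 nor TATA nor Runx matches were found in the windows of Timp1, Timp2 and Timp3. GC box matches (GGGCGG), left in lower case, numbered 1 in Timp1, 1 in Timp2 and 3 in Timp3. PEA3 matches (AGGAAG), also in lower case, numbered 1 in Mmp13 and 2 in Timp1. Among 33469 promoters of the same length, 6.34% held an AP-1 match, 14.5% a Runx match, 12.9% a TATA match, 29.5% a PEA3 match and 30.5% a GC box match. These matches describe letters only, and no binding was measured.

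A gene was called where its Benjamini-Hochberg adjusted p from limma, over all 8740 probe sets, was below 0.05. By the brightest probe set, all members but Timp3 were called higher than in the femur with no fracture at most of the 5 times. Mmp13 was not called at 3 days, nor Mmp14 at 6 weeks. The second probe set of Mmp2 was lower at every time without being called. At 3 days 5 of the 7 members were called higher, against 18.9% of all probe sets. The number was 6 of 7 at 1 week (18% of all probe sets), at 2 weeks (16.1%) and at 4 weeks (11.5%), and 5 of 7 at 6 weeks (8.34%). No member was called lower at any time. The shares over all probe sets include dim ones, and the members were chosen with earlier results of these data known. Among the 3932 probe sets with a mean signal of at least 200, 2331 were called at 3 days, 54.8% of them higher. In that fit 6 of the 6 members tested were called. Of all probe sets, 3437, 3126, 2868, 1855 and 1350 were called in either direction at the 5 times. Of these calls 48.1%, 50.3%, 48.9%, 54.3% and 54% were higher and the rest lower. The counts for related genes and markers given below are to be read beside these shares. The median log2 change of the members was 2.29, 2.71, 2.66, 2.13 and 2.03 at the successive times, and the median over all probe sets lay between -0.08 and -0.01. These 5 comparisons share the 3 arrays with no fracture. The tissue is a mixture of callus, bone, marrow and some muscle, so fewer cells of a type and less RNA per cell cannot be told apart. The ratio of 3′ to 5′ actin signal, a sign of RNA quality, also moved with fracture. It was 2.1 to 2.61 with no fracture and 1.48 to 1.9 after fracture, apart from 2.72 and 2.27 on the young and adult arrays at 6 weeks. With that ratio as a covariate, 2 members were called at 3 days (Timp1 higher and Timp3 lower) and 2 each at 1, 2 and 4 weeks, while 5 were called at 6 weeks. Its part in the changes was not tested further.

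**Figure D1:**
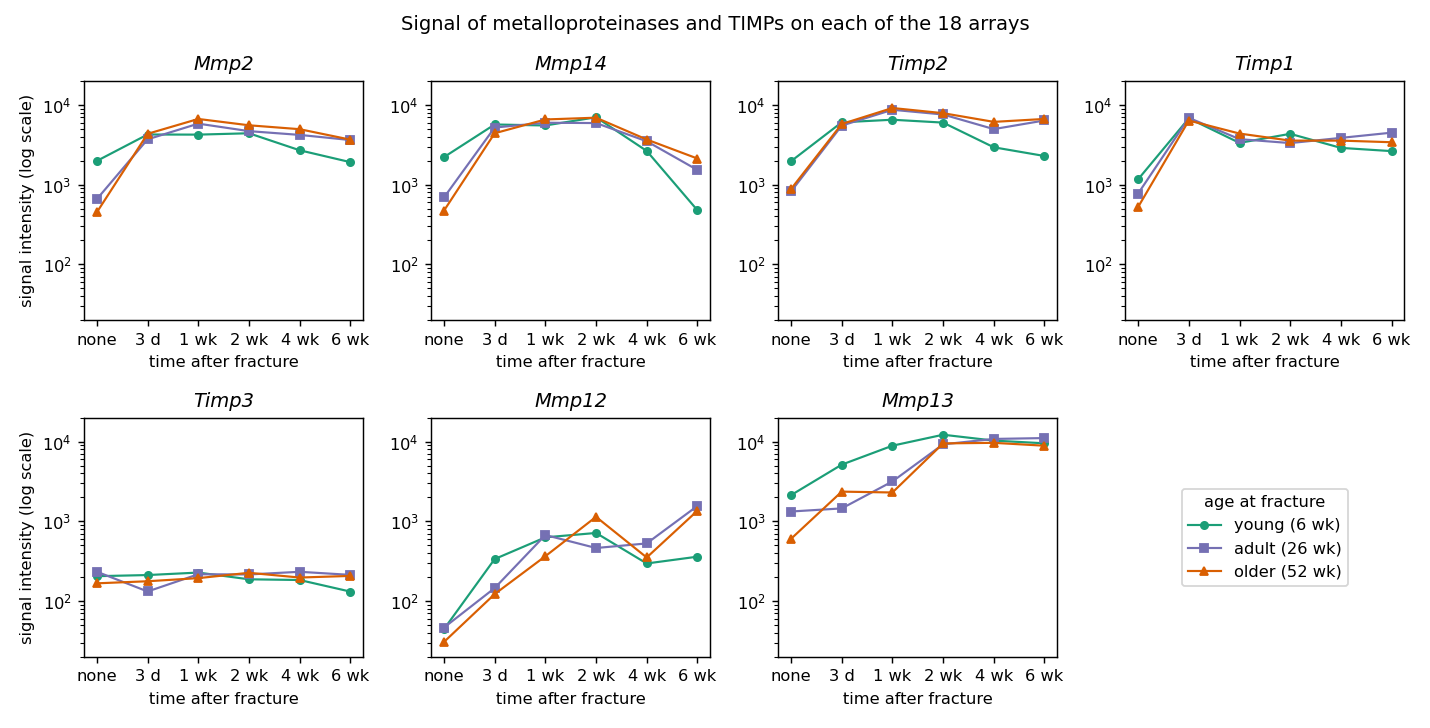
Signal intensity (log scale, scaled by the authors to a common array mean) of each member on each of the 18 arrays against time after fracture, with 1 line for each age and 1 panel for each gene. Timp1 peaks at 3 days at every age, Mmp13 climbs to a plateau from 2 weeks, Mmp14 falls back by 6 weeks, and Timp3 stays between 132 and 234.

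At every age Mmp13 was highest from 2 weeks on and stayed high. It had already risen by 3 days in young and older rats. In young rats its signal was 2137 with no fracture, then 5157, 8915, 12241, 10332 and 9553 at 3 days and 1, 2, 4 and 6 weeks. In adult rats the values at the same times were 1331, 1456, 3174, 9276, 10837 and 11113. In older rats they were 605, 2364, 2306, 9523, 9685 and 8911. The arrays from 2 weeks on lay between 8911 and 12241, a range that only the young array of 1 week (8915) reached before. Up to 2 weeks the young array was the highest of the 3 ages. The mean signal was 1358 ± 766 (SD, n = 3) with no fracture and 10347 ± 1640 at 2 weeks. The ranges at 2, 4 and 6 weeks overlapped, with means of 10347, 10285 and 9859.

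The fitted log2 change of Mmp13 was 1.12 (SE 0.42, adjusted p = 0.057) at 3 days, where the ranges overlapped and the gene was not called. It was 1.75 (3.36-fold, adjusted p = 0.0086) at 1 week and 3.10 (8.56-fold, adjusted p = 0.00048) at 2 weeks. At 4 and 6 weeks it was 3.10 and 3.03 (adjusted p = 0.0014 and 0.0017). Mmp13 was the only member called between 3 days and 2 weeks, with a further rise of 1.98 on the log2 scale (SE 0.42, 3.93-fold, adjusted p = 0.021), present at 3 of 3 ages, where 3.04% of all probe sets were called higher and 3.1% lower. That call was lost when the adult or the older array of either time was left out. Between 2 and 6 weeks the change of Mmp13 was -0.06 (SE 0.42).

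Mmp12 rose at every time from low signals. None of its arrays lay under the signal floor of 20, but a higher floor makes its change smaller. In young rats its signal was 44.5 with no fracture, then 337, 631, 716, 297 and 361 at 3 days and 1, 2, 4 and 6 weeks. In adult rats the values were 46.5, 146, 675, 464, 529 and 1564. In older rats they were 30.7, 122, 366, 1141, 353 and 1361. Every fractured array lay above all 3 arrays with no fracture. The highest value came at 2 weeks in young rats and at 6 weeks in adult and older rats. Ordered by mean, 6 weeks was highest (1095 ± 644, SD, n = 3), then 2, 1 and 4 weeks and 3 days, and each neighbour in that order overlapped with the next except 3 days and no fracture.

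Mmp12 was called at every time. The log2 change was 2.19 (4.56-fold, SE 0.59, adjusted p = 0.013) at 3 days, 3.75 (13.5-fold, adjusted p = 0.00081) at 1 week and 4.18 (18.1-fold, adjusted p = 0.00056) at 2 weeks. At 4 weeks it was 3.26 (9.55-fold, adjusted p = 0.0047), and at 6 weeks 4.52 (22.9-fold, adjusted p = 0.0012). With a floor of 100 the changes of Mmp12 were 0.86, 2.43, 2.86, 1.93 and 3.19 at the 5 times, and the first of them was not called. The 3-day call was also lost without the young array of that time. The difference between 2 weeks and 3 days, 1.99 on the log2 scale, was not called (adjusted p = 0.077), although the ranges did not overlap.

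Mmp2 rose to a broad maximum at 1 and 2 weeks. In young rats its signal was 1989.7 with no fracture, then 4266, 4251, 4422, 2705 and 1919 at 3 days and 1, 2, 4 and 6 weeks. In adult rats the values were 660.3, 3709.8, 5838, 4702, 4217 and 3635. In older rats they were 452, 4352, 6685, 5568, 4974 and 3678. The young array with no fracture stood above the other two, and the young array at 6 weeks had come back to that level. At all other fractured times every array lay above the 3 arrays with no fracture. By mean the order was 1 week (5591 ± 1240, SD, n = 3), 2 weeks, 3 days, 4 weeks, 6 weeks and no fracture, and of these neighbours only 2 weeks and 3 days did not overlap. The log2 change was 2.29 (SE 0.48, adjusted p = 0.0033) at 3 days, 2.71 (6.54-fold, adjusted p = 0.0016) at 1 week, 2.54 (adjusted p = 0.0025) at 2 weeks and 2.19 (adjusted p = 0.01) at 4 weeks. At 6 weeks it was 1.81 (adjusted p = 0.028), higher at 2 of 3 ages, and the call was lost when either the adult or the older array of 6 weeks or of no fracture was left out.

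The second probe set of Mmp2 did not follow the first. It lay between 80.3 and 272 on all 18 arrays and its log2 changes were -0.76, -0.52, -0.24, -0.27 and -0.33 at the 5 times, none of them called (adjusted p = 0.058 to 0.57). The 2 probe sets therefore disagree, and which of them reads the main Mmp2 transcript cannot be settled from these values.

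Mmp14 rose early and was the member that fell back. In young rats its signal was 2219.9 with no fracture, then 5699.8, 5537, 7019, 2654 and 478 at 3 days and 1, 2, 4 and 6 weeks. In adult rats the values were 692, 5219, 5990.1, 5939, 3510.1 and 1532. In older rats they were 473, 4423, 6587, 6934, 3692 and 2131. The 9 arrays of 3 days, 1 week and 2 weeks lay between 4423 and 7019, above all others. The 3 arrays of 4 weeks came next without overlap, and those of 6 weeks overlapped with no fracture. At 6 weeks the young array was at 0.216 times its level with no fracture, while the adult and older arrays were at 2.22 and 4.51 times theirs.

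The log2 change of Mmp14 was 2.50 (SE 0.58, adjusted p = 0.0059) at 3 days, 2.74 (adjusted p = 0.0041) at 1 week and 2.88 (7.36-fold, adjusted p = 0.0037) at 2 weeks. It was 1.86 (adjusted p = 0.044) at 4 weeks, a call lost in 17 of 21 fits with an array or an age left out. At 6 weeks it was 0.37 (95% interval -0.91 to 1.65, adjusted p = 0.75). Between 2 and 6 weeks Mmp14 fell by 2.51 on the log2 scale (SE 0.58, 5.7-fold, adjusted p = 0.029), at 3 of 3 ages, and it was the only member called in that comparison, where 3.27% of all probe sets were called lower and 3.12% higher. The call was lost in 7 of 21 fits with an array or an age left out (-3.02 to -1.76 over all 21), namely without the adult or the older rats and without the young, adult or older array of 2 weeks or the young or adult array of 6 weeks. Those arrays of 6 weeks are the ones with the high actin ratio. Without them the fall was 1 older array against 3 arrays and was not called (-1.48), and it was also not called with the actin ratio as a covariate (-1.82, adjusted p = 0.4).

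**Figure D2:**
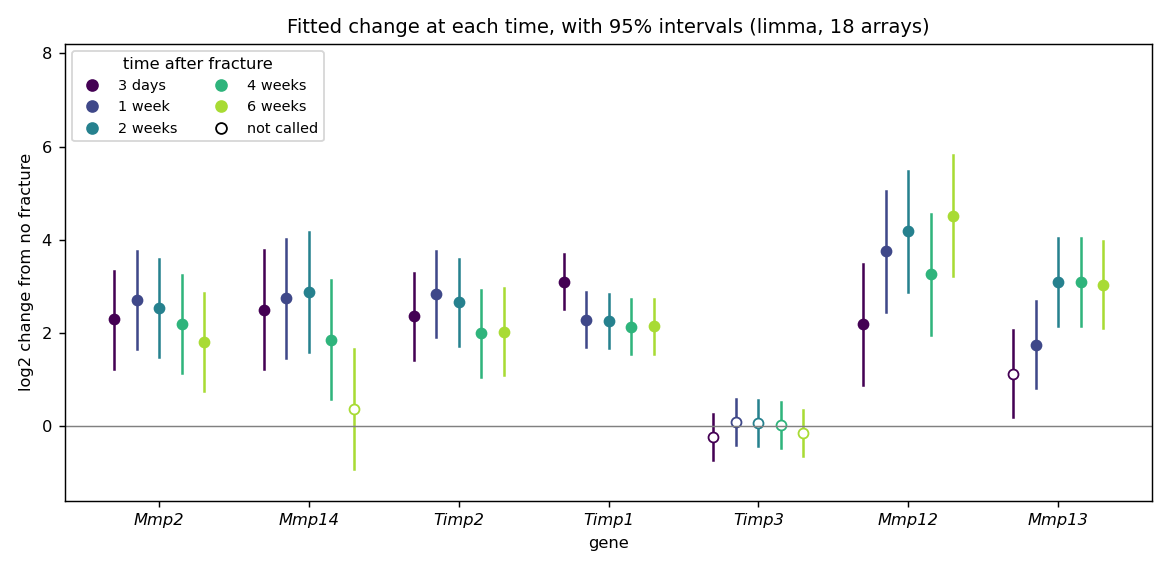
Fitted log2 change from no fracture (vertical axis) for each member at each of the 5 times, from limma over 18 arrays, with 95% intervals as lines. Filled points were called and open points were not: Timp3 is open throughout, Mmp13 is open at 3 days and Mmp14 at 6 weeks.

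Timp1, an inhibitor that is induced quickly in many injured tissues, had the earliest peak. Its signal at 3 days was 6806 in the young rats, 6903 in the adult and 6392 in the older ones, up from 1170, 775 and 526 with no fracture. From 1 week on it lay between 2639 and 4498 at all ages. The 3-day arrays thus stood above all 15 others, and the 4 later times overlapped with each other. The 3-day mean was 6701 ± 271 (SD, n = 3), and the later means ran from 3447 to 3821. The log2 change was 3.10 (8.57-fold, SE 0.27, adjusted p = 1.9e-05) at 3 days, and this call held under every alternative and with any array or age left out. It was 2.28, 2.25, 2.13 and 2.14 at 1, 2, 4 and 6 weeks, with adjusted p between 0.00017 and 0.00092. The step down from 3 days to 2 weeks was -0.85 (adjusted p = 0.099), seen at 3 of 3 ages but not called.

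The second probe set of Timp1 was also highest at 3 days at every age and gave larger changes. Its signal with no fracture was 643 for young, 184 for adult and 105 for older rats. At 3 days it was 6528, 6831 and 6461. The log2 change at 3 days was 4.83 (28.5-fold, adjusted p = 5.6e-05), and at the later times it was between 3.56 and 3.93.

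Timp2, the inhibitor that also takes part in activating the Mmp2 proenzyme, followed the course of Mmp2. In young rats its signal was 1973 with no fracture, then 6069, 6537, 6017, 2948 and 2292 at 3 days and 1, 2, 4 and 6 weeks. In adult rats the values were 823, 5519, 8717, 7604, 4985 and 6400. In older rats they were 884, 5777, 9175, 7899, 6145 and 6686. Every fractured array lay above those with no fracture, and all 3 ages were highest at 1 week. At 4 and 6 weeks the young arrays were the lowest of the 3 ages. The mean was 8143 ± 1410 (SD, n = 3) at 1 week, and the ranges of neighbouring times in the order of means overlapped except that with no fracture. The log2 change was 2.36 (SE 0.42, adjusted p = 0.0013) at 3 days, 2.84 (7.14-fold, adjusted p = 0.0006) at 1 week and 2.66 (adjusted p = 0.001) at 2 weeks. At 4 and 6 weeks it was 1.99 and 2.03 (adjusted p = 0.0089 and 0.011), and the 6-week call was lost without the adult array of 6 weeks or of no fracture.

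Timp3 was not called at any time. Over the 18 arrays its signal lay between 132 and 234, with a mean of 202 ± 33.4 (SD, n = 3) with no fracture and between 174 and 213 after fracture. The median signal of an array was 132.6 to 165.1, so the single probe set of Timp3 was dim. Detection calls were not analysed here, so no response and no detection cannot be told apart for Timp3. The ranges of neighbouring times overlapped throughout. The largest fitted change in size was -0.23 at 3 days (95% interval -0.72 to 0.26, adjusted p = 0.45). With the actin ratio as a covariate that value was -1.07 (adjusted p = 0.015), which is past the threshold.

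Members were next compared between ages over all 6 times. None of the 7 was called for older against young rats, where 0.446% of all probe sets were called, or for adult against young rats, where 0.0801% were. At an unadjusted p below 0.05 the number was 1 of 7 in each comparison, where 14.1% of all probe sets passed for older and 9.57% for adult rats, so it is near the background. The member was Mmp13, with a log2 difference of -0.91 (SE 0.30, adjusted p = 0.2) and lower values at 6 of 6 times in older rats. In adult rats Mmp13 differed from young rats by -0.69 (adjusted p = 0.5) and was lower at 4 of 6 times. For Timp2 the difference of older from young rats was 0.38 (95% interval -0.28 to 1.03), and for Mmp2, Mmp12, Mmp14, Timp1 and Timp3 it was between -0.08 and 0.12. The interval for Mmp14 ran from -0.86 to 0.95, so differences of that size would not have been detected.

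The rise after fracture, counted from the unfractured femur of the same age, was larger in older than in young rats for Mmp2. Its mean rise over the 5 times was 0.75 for young, 2.72 for adult and 3.45 for older rats on the log2 scale. The test of the difference between older and young rats gave 2.71 (SE 0.36, adjusted p = 0.0035), with a larger rise in older rats at 5 of 5 times. Among all probe sets 3.2% were called in that comparison, and Mmp2 was the only member. For Mmp14 the mean rise was 0.48 in young and 3.21 in older rats, a difference of 2.73 (SE 0.77, adjusted p = 0.11). For Timp2 it was 1.15 and 2.99 (difference 1.84, adjusted p = 0.12), and for Timp1 1.69 and 2.98 (difference 1.29, adjusted p = 0.1). All 3 of these were larger in older rats at 5 of 5 times but were not called. The second probe set of Timp1 was called (2.88, adjusted p = 0.0073), and that of Mmp2 was not (-0.11).

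These differences rest on 1 unfractured array for each age, so their SE and p come from the scatter among the fractured arrays and hold no measured spread of the unfractured ones. The young one read 1989.7 for Mmp2 and the older one 452, whereas the means over the 5 fractured times were 3513 ± 1130 (SD, n = 5) in young and 5051 ± 1150 in older rats. For Mmp14 the unfractured values were 2219.9 and 473, and the fractured means 4278 ± 2650 and 4753 ± 2010. With no fracture the young array was thus above the older one for both genes. After fracture the older array was above the young one at every time for Mmp2. For Mmp14 the older rats were higher by mean only, within a wide spread. The young Mmp14 array was higher at 3 days (5699.8 against 4423) and at 2 weeks (7019 against 6934). Without the young array of 6 weeks, Mmp14 and Timp2 were also called.

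**Figure D3:**
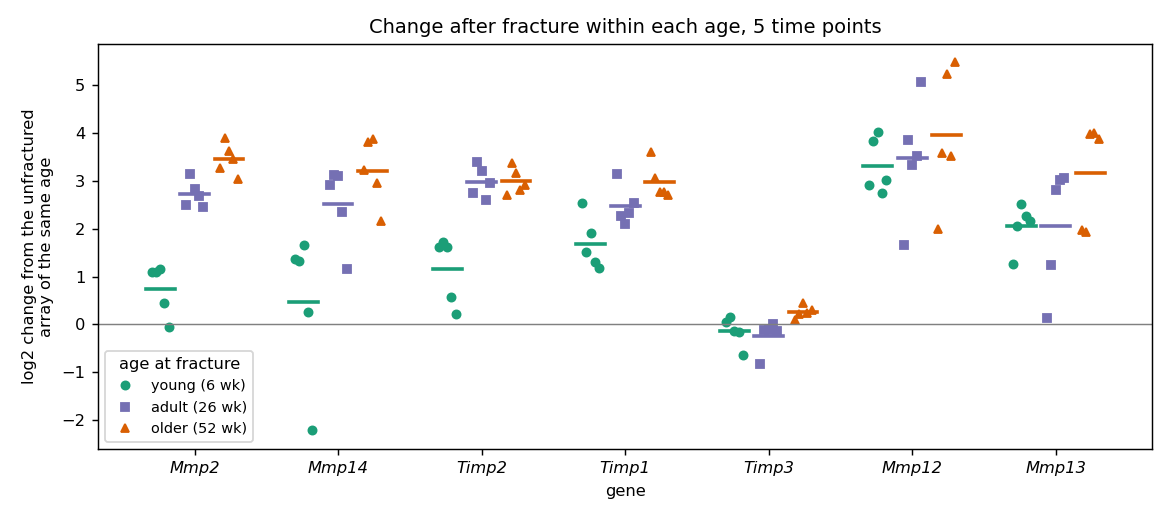
Log2 change of each member from the unfractured array of the same age (vertical axis), with 5 points for the 5 fractured times and a bar at their mean, by age. The young points of Mmp2, Mmp14 and Timp2 sit lowest, with means of 0.75, 0.48 and 1.15, and the young point of Mmp14 at -2.21 is the 6-week array.

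How the log2 signals of the members ran together over the arrays is given as a description, since the arrays share times and ages. Mmp2 and Timp2 ran closest (Pearson r = 0.97 over 18 arrays and 0.93 over the 15 fractured arrays). Mmp14 ran with both, at r = 0.86 with Mmp2 and 0.84 with Timp2, and at 0.84 and 0.74 within the fractured arrays. Timp1 had r = 0.88 with Mmp2 and 0.87 with Timp2 over all arrays, but 0.30 and 0.32 over the fractured arrays. Mmp12 and Mmp13 had r = 0.83, and 0.63 within the fractured arrays. Timp1 and Mmp13 had r = 0.50 over all arrays but -0.67 over the fractured arrays, where one was highest at 3 days and the other from 2 weeks. The largest r of Timp3 with another member was 0.31 (Mmp14) over all arrays and 0.60 (Timp2) over the fractured arrays.

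The genes whose profile was most like that of each member were sought among those with a mean signal of at least 200. For Mmp2 they were Fstl1, Acan (the cartilage proteoglycan aggrecan) and Bgn (biglycan, a small proteoglycan of bone), each at r = 0.98 over 18 arrays. For Timp2 they were Mmp2 (0.97), Acan (0.97) and Bgn (0.96). For Mmp13 they were Serping1 (0.95), Ctsk (0.94), which encodes cathepsin K, the collagen-cutting protease of osteoclasts, and Slc4a2 (0.92), an anion exchanger. Mmp12 was nearest to Gal (0.92), which encodes the neuropeptide galanin, and to Ppt1 and Gstm5 (0.88 each). Mmp14 was nearest to Mxd4 (0.96), Gpc1 and Actn4 (0.95 each), and Timp1 to Srpx, Cnpy2 (0.97 each) and Ap3m1 (0.96). Timp3 had no gene above r = 0.70, the value of Nucb1.

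Among the other metalloproteinases, 8 of 14 listed genes were measured. Of these 8, the number called higher was 2, 2, 3, 2 and 3 at the 5 times, and the number called lower was 1, 1, 1, 1 and 0. Mmp16, another membrane-type enzyme, was called higher at every time, with log2 changes from 2.82 to 3.62. These depend on the signal floor because its adult and older signals with no fracture were 13.5 and 5.4. In young rats Mmp16 at 6 weeks (182.7) was below its signal with no fracture (225.6). Mmp23 was also called higher at every time (1.68 to 2.62). Mmp8, the collagenase of neutrophils, fell at 3 days and at 1, 2 and 4 weeks (-3.49, -3.69, -4.35 and -2.60), and these values also depend on the floor of 20, which some of its fractured arrays were under. Mmp10 (stromelysin 2) rose at 2 weeks (1.62) and fell again by 6 weeks (-1.74 from 2 weeks), sizes that depend on the floor because its signals with no fracture were 12.2 to 28.4, and Mmp3 (stromelysin 1) rose at 6 weeks (1.67). Mmp7 and Mmp11 were called at no time.

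Mmp9, the gelatinase of osteoclasts and neutrophils, is not a member but was far apart between ages at 3 days. Its signal there was 3886 for young, 62.9 for adult and 53.8 for older rats, against 1924, 1344 and 1614 with no fracture. At 2 weeks it was 11159.8 for young, 9644 for adult and 9194 for older rats. No change from no fracture was called (-2.77 at 3 days, 2.63 at 2 weeks), but the rise from 3 days to 2 weeks was (5.40 on the log2 scale).

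**Figure D4:**
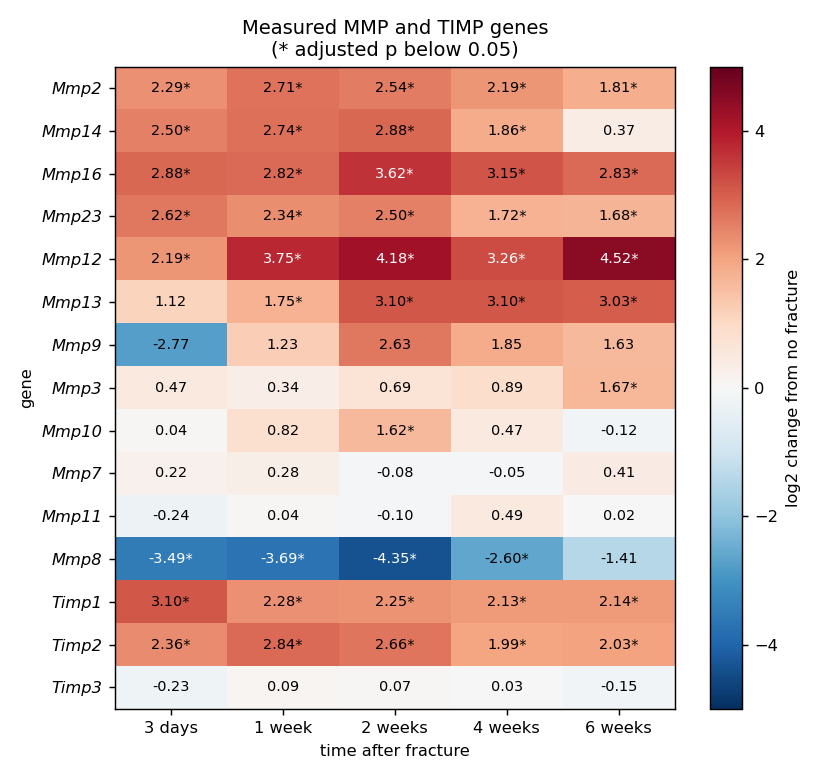
Fitted log2 change from no fracture (colour and printed value) for the measured metalloproteinase and TIMP genes in rows and the 5 times in columns, with an asterisk where the adjusted p was below 0.05. Mmp2, Mmp12, Mmp16, Mmp23, Timp1 and Timp2 are marked at all 5 times, and Mmp8 is the row marked lower.

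Of the genes for activation and clearance of metalloproteinases, 12 of 18 were measured. The number called higher was 7, 5, 6, 5 and 5 at the 5 times, and the number called lower was 4, 2, 2, 2 and 1. Plat and Plau, the plasminogen activators whose product plasmin can activate proenzymes, rose at every time (Plat 2.17 to 2.90, Plau 0.86 to 1.62). So did Serpine2 (2.50 to 4.19), an inhibitor of such serine proteases, Bsg (0.88 to 1.29), a surface protein known to induce metalloproteinases, and Tfpi (0.85 to 1.03). Furin, the convertase that activates the Mmp14 proenzyme, fell at every time (-1.27 to -1.51). Its signal was 3597.5 to 6473 with no fracture and 1379.7 to 2345 after it, without overlap. A2m, a plasma inhibitor of proteases read here by 1 of its 6 probe sets, fell at 3 days and 1 week (-0.58 and -0.55). Plaur, the urokinase receptor, rose at 3 days (0.61) and fell at 2 and 4 weeks (-0.83 and -0.66), and Pcsk6 rose at 3 days and 2 weeks (1.66 and 1.41).

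Of the transcription factors known to act on metalloproteinase promoters, 11 of 15 were measured, and 5, 6, 5, 1 and 1 were called higher at the 5 times. The counts at 4 and 6 weeks are near the shares of all probe sets called higher (11.5% and 8.34%). Those called lower numbered 0 until 4 weeks and 1 at 6 weeks, which was Runx1 (-0.76). Fos, a subunit of AP-1, rose at every time (0.65 to 1.57). Jun, its partner, and Junb rose at 3 days and at 1 and 2 weeks, from 1.04 to 1.30 for Jun and from 0.90 to 1.58 for Junb. Stat3 rose at the same times (1.74 to 2.02), sizes that depend on the floor because its older signal with no fracture was 14.5. Nfkb1 rose at 1 and 2 weeks (0.65 and 0.48), and Cebpb at 3 days and 1 week (0.49 and 0.58). Of 9 measured cytokine genes out of 11, the number called higher was 3, 3, 2, 1 and 1, and the number called lower was 2, 1, 1, 1 and 0. The number called higher at 4 and 6 weeks is again near the share of all probe sets. Il6 rose by 5.06 on the log2 scale at 3 days and by 1.84 at 1 week, from signals that with no fracture lay below the floor, so the sizes depend on it. Tgfb3 was called higher at every time (2.07 to 2.96). In young rats, however, its signals at 4 and 6 weeks (386.6 and 372) were below that with no fracture (452.3). Tgfb1 rose at 3 days, 1 week and 2 weeks (0.77 to 1.11), and Il1b fell at 1, 2 and 4 weeks (-1.11 to -1.33).

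All 16 listed matrix proteins, among them substrates of these enzymes, were measured. Of these, 11, 13, 14, 14 and 11 were called higher at the 5 times and 0 were called lower. The median log2 change of the list was 2.16, 2.62, 2.39, 2.19 and 1.98. Acan changed by 3.34 to 4.99, Col3a1 by 1.80 to 2.11 and Tnc by 1.82 to 3.15, with the 6-week value of Tnc not called. The size for Acan depends on the floor, because its older signal with no fracture was 16.4. In young rats Acan at 6 weeks (190.9) was below its signal with no fracture (319.3). In the rise after fracture, 12 of the 16 were called larger in older than in young rats (median difference 2.63), beside 1 of the 7 members.

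Markers of the cell types in the tissue moved as follows. Of 5 measured osteoblast markers, 3, 3, 4, 5 and 1 were called higher at the 5 times, and their summed signal was 16696 to 59267 with no fracture and 54515 to 75088 at 2 weeks. Of 5 measured osteoclast markers, 0, 3, 4, 3 and 3 were called higher at the 5 times, and Ctsk changed by 1.23, 2.53, 3.36, 3.40 and 3.23. Their summed signal was 1975 to 7661 with no fracture and 26927 to 32145 at 2 weeks. Of 4 measured macrophage markers, 1 or 2 were called higher at each time and up to 2 lower, with Cd14 higher at every time (0.66 to 1.67) and Lyz2 lower until 2 weeks (-0.78 to -1.11). Their summed signal was 14657 to 16597 with no fracture and 5383 to 11852 after it, and nearly all of it was Lyz2. With each marker given equal weight, the mean relative log2 level was -0.09 to 0.10 with no fracture and -0.34 to 0.26 after it. Of 6 cartilage markers, 3, 6, 5, 5 and 5 were called higher. The 3 measured neutrophil markers (S100a8, S100a9 and Defa5) were all called lower at 3 days and at 1, 2 and 4 weeks. All 5 erythroid markers were called lower at 3 days and at 1 and 2 weeks, and all 7 skeletal muscle markers at 3 days. No listed marker was at the floor on all 3 arrays of a time. The part of these cell types in the changes of the members was not tested.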

How the data were processed

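The deposited values are signal intensity, which the authors computed with Affymetrix Microarray Suite from perfect match and mismatch probes of the rat genome array and scaled to a target of 500 on each array. The 2% trimmed mean was checked and lay between 500.7 and 500.8, so values are relative to the rest of the array and a gene can move because others do. Signals below 20 were set to 20 (12.2% to 20.1% of probe sets on an array) and taken as log2 here, with no filter. Of 8799 probe sets, 59 controls were left out. Of the 8740 tested, 7006 name 1 gene, 308 several and 1426 none in the platform annotation. Time and age were fitted as additive factors in limma 3.58.1 (R 4.3.3), with empirical Bayes moderation that followed signal, leaving 10 residual degrees of freedom. A second limma fit added the interaction of age with fracture for the rise comparison (8 residual degrees of freedom). Adjusted p is Benjamini-Hochberg over all 8740 probe sets, and calls need a value below 0.05. The scripts were tested on simulated data.

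Columns left unused numbered 0. Neither detection calls nor files of single probes were analysed here. The members and the related lists were chosen with earlier results of these data known. All 7 members are named, with every probe set. Genes of the related lists are read by their brightest probe set alone. Where they have several (6 for A2m, 4 for Jun, 2 for Furin), the others are not given. Genes of the related lists are named where called at 2 or more times (for the matrix list, examples only), Mmp3, Mmp7, Mmp9, Mmp10, Mmp11 and Runx1 were added after their values were seen, and the 3 nearest genes of each member are named by Pearson r. Alternatives were median centring, quantile normalization, log2(signal + 50), a floor of 100, a mean signal of at least 200, no trend and the actin ratio as a covariate. Further ones were other probe sets, fits on the compared arrays alone, an unmoderated t-test without age in place of limma, and leaving out each array, age or time. The study names a t-test. Its threshold of 0.005 belonged to another test, the array software's comparison of fractured with unfractured samples, and was applied to the t-test here. Leaving out the young and adult arrays of 6 weeks together was added after the data had been seen. The number of arrays limits the precision.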

Additional observations from a re-analysis of the deposited data

Results flagged for a closer look

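The rise of Mmp2 after fracture differed between older and young rats in a direct test of the interaction, by 2.71 on the log2 scale (SE 0.36, limma, adjusted p = 0.0035). The call was kept in the 20 fits that could leave out an array or a time, with values from 2.59 to 2.85, and with the actin ratio as a covariate (2.60, adjusted p = 0.0026). It was not seen in the second Mmp2 probe set (-0.11). It could not be computed without either unfractured array, since each age has 1, so the SE and p hold no measured spread of the unfractured arm and the fits above do not test it.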

How the results depend on the processing

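Arrays of different times are matched by age, which was a factor in the fits against no fracture. No further paired analysis was possible because each age and time has 1 array in the data used here. The counts of members called at 3 days and 1, 2, 4 and 6 weeks (5, 6, 6, 6 and 5) fell to 2, 2, 2 and 2 at the first 4 times with the actin ratio as a covariate, to 2, 1, 0, 0 and 0 when only the arrays compared were fitted, and to 2, 3, 3, 0 and 0 with an unmoderated test of the compared arrays after Benjamini-Hochberg. At an unadjusted p of 0.005 that test gave 2, 3, 4, 3 and 2 at 3 days and 1, 2, 4 and 6 weeks. For 2 weeks against 3 days, 2 members were called with log2(signal + 50), with the actin ratio or without the young and adult 6-week arrays, and 3 with a mean signal of at least 200. For 6 weeks against 2 weeks, 0 were called with the actin ratio or without those arrays. For the rise after fracture, 3 were called with a mean signal of at least 200 and 2 without those arrays. Leaving out 1 array, age or time in turn gave 1 to 6 members at 3 days, 2 to 6 at 1 week, 3 to 6 at 2 weeks, 0 to 6 at 4 and at 6 weeks, 0 to 2 for 2 weeks against 3 days, 0 to 1 for 6 weeks against 2 weeks and 1 to 3 for the rise. The lowest counts against no fracture came without the adult or the older rats. At 6 weeks 3 were called without the adult array of that time or of no fracture. Over all probe sets the calls without the adult rats were 1742 at 3 days (3437 with them) and 37 at 4 weeks (1855 with them), and on the compared arrays alone 902, 356, 0, 0 and 0 at the 5 times. Mmp2 had the opposite sign by its other probe set (-0.76, -0.52, -0.24, -0.27 and -0.33 at the 5 times, -0.11 for the rise). Quantile normalization, median centring, a floor of 100 and the fit without a trend kept every count of members within 1.5 times. Over all probe sets the calls for older against young rats went from 39 to 8 with a floor of 100 and to 64 with median centring, where the share called higher was 68.8% in place of 46.2%. Those for adult against young rats went from 7 to 2 with quantile normalization and to 0 with a floor of 100. The counts of 0 members for the age comparisons stayed at 0 throughout. Of 2244 member values compared, 102 changed sign without being called in either fit, 30 of them for Timp3. The cause of these differences was not tested.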
